A study of Mus musculus with 12 samples.

Results

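Meiotic recombination factors were followed in mouse germ cells made in culture and taken from embryos. The set held 8 genes, Spo11, Mei1, Prdm9, Dmc1, Meiob, Tex15, Msh4 and Msh5, chosen by name with earlier results of these data known. All 8 had at least 1 probe set whose annotation names that gene alone, and together they had 10 probe sets among the 45101 on the array. Each gene was read from its brightest probe set by the average of the 12 arrays, so that 8 of 18194 named genes are described.

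In meiosis, chromosomes are broken on purpose and the breaks are repaired from the homologous chromosome, which pairs the homologs and leaves crossovers between them. PRDM9 marks where breaks fall, SPO11 cuts with the help of accessory proteins such as MEI1, and DMC1 searches for the homologous strand on single-stranded DNA that MEIOB and other proteins cover. MSH4 and MSH5 then hold the joined strands, and many of these genes are switched on in the mouse ovary when germ cells leave the mitotic cycle and enter meiosis.

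The 6 groups had 2 arrays each. The d3ag6 group held female primordial germ cell-like cells (PGCLCs), induced from embryonic stem cells, taken at day 3 and grown for 6 more days in aggregates with somatic cells of female E12.5 gonads. The E12.5 group held primordial germ cells (PGCs) of female embryos at embryonic day 12.5. Female PGCLCs at day 6 without aggregation formed the d6F group and those at day 3 the d3 group, while d6M held male day 6 PGCLCs and E9.5 held PGCs of embryonic day 9.5 whose sex is labelled unknown. All PGCLCs were C57BL/6 and carried BVSC, reporters of Blimp1 (mVenus) and stella (ECFP); PGCs carried stella-EGFP on a mixed C57BL/6 and BDF1 background, so PGCLCs and PGCs differ in strain and reporter as well as in origin. Every sample was sorted on reporter fluorescence, a gate set by germ cell genes and not by any of the 8 genes. Whether the PGCLC samples came from 1 or several stem cell clones was not given in the sources used here.

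Values are log2 signal, quantile normalized, and a change is a difference of log2 means with its standard error (SE). A gene was called where limma's test gave an adjusted p under 0.05 over 13436 genes, those with at least 2 arrays above 4.81, the median of all values. Before normalization array medians lay between 4.73 and 4.87, and replicate arrays correlated at 0.969 to 0.990 across genes, which are not independent replicates. Group means rest on 2 arrays labelled biological replicates, whose separate origin is not described further, so p-values measure the spread between such arrays and their number limits the precision. The array descriptions carry a code that is the same for d3ag6, E12.5, d6F and d3 and differs for d6M and E9.5, which share 2 other codes with 1 array of each group in either. In comparisons of d6M or E9.5 with the other groups, code and group cannot be told apart. Of 10 germ cell markers on the array, 8 to 10 lay above the median in both arrays of every group. Macrophage and blood markers, summed on the linear scale over 11 genes, reached 2293 to 2827 in d3ag6, against 606 to 646 in E12.5, 520 to 537 in d6F, 427 to 454 in d3, 396 to 425 in d6M and 4582 to 10400 in E9.5. The brightest genes of this list in d3ag6 were the macrophage markers Lyz1 and Tyrobp, with log2 means of 9.41 and 9.23. In E9.5 they were the globins Hba-x and Hbb-bh1, at 12.23 and 10.58. The sums of d3ag6 and E9.5 therefore do not compare the same kind of cell. Gonadal somatic markers, over 12 genes, summed to 800 to 898 in d3ag6, against 580 to 588 in E12.5, 470 to 477 in d6F, 498 to 665 in d3, 456 to 489 in d6M and 488 to 622 in E9.5. Mesenchyme markers, over 8 genes, summed to 503 to 1006 in d3ag6, 231 to 265 in E12.5, 402 to 434 in d6F, 303 to 443 in d3, 437 to 594 in d6M and 1167 to 2945 in E9.5. Endothelial markers, over 8 genes, summed to 716 to 798 in d3ag6, 445 to 474 in E12.5, 969 to 1879 in d6F, 638 to 654 in d3, 2615 to 2993 in d6M and 993 to 1521 in E9.5. No marker of these lists stood at 0 in both arrays of a group, and the part of such cells in the results was not tested.

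Aggregated PGCLCs stood apart from d6F PGCLCs in 3 of the 7 recombination genes tested: on the log2 scale Meiob was higher by 4.10, Msh4 by 2.13 and Spo11 by 1.55, and none was called lower. Over all genes tested, 4.03% were called higher and 2.36% lower in that comparison. Meiob and Msh4 lay under the median of all values in d6F, and with low values set to it their changes were 2.74 and 0.53. Msh4 was then not called, and its call was lost under other settings given below. That leaves Meiob and Spo11, of which Spo11 alone exceeded the median on all 12 arrays. Meiob passed the filter only through its 2 d3ag6 arrays, so its place among the genes tested depends on the group where it was high. With low values set to the median, its other arrays have no spread, so a call under that setting is no separate support. Against d3, Meiob (by 3.51), Spo11 (by 1.41) and Tex15 (by 1.14) were higher in d3ag6, where 5.81% of all genes were called higher and 4.84% lower. Set against E12.5 PGCs, d3ag6 cells were higher in Meiob by 2.94, or 2.74 with low values set to the median, and lower in Tex15, at -1.64, with 5.95% of all genes called higher and 3.07% lower. The other 5 tested genes, Spo11, Dmc1, Msh4, Msh5 and Prdm9, were not called between d3ag6 and E12.5. In d3ag6 minus d6F, 4 of 9 tested macrophage and blood markers and 3 of 9 gonadal somatic markers were also called higher. Against d3 these were 5 of 9 and 2 of 9, with 1 of 7 mesenchyme markers. Against E12.5, 5 of 9 macrophage and blood markers were called higher and 1 lower. Also higher there were 1 of 9 gonadal somatic, 1 of 8 endothelial and 1 of 7 mesenchyme markers. The part of such cells was not tested. The d3ag6 cells had more days in culture than d6F cells, so aggregation and time cannot be told apart. These comparisons share the d3ag6 arrays and so are not independent of each other. In bulk samples a higher signal in more of the cells and a higher signal per cell cannot be told apart.

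**Figure D1:**
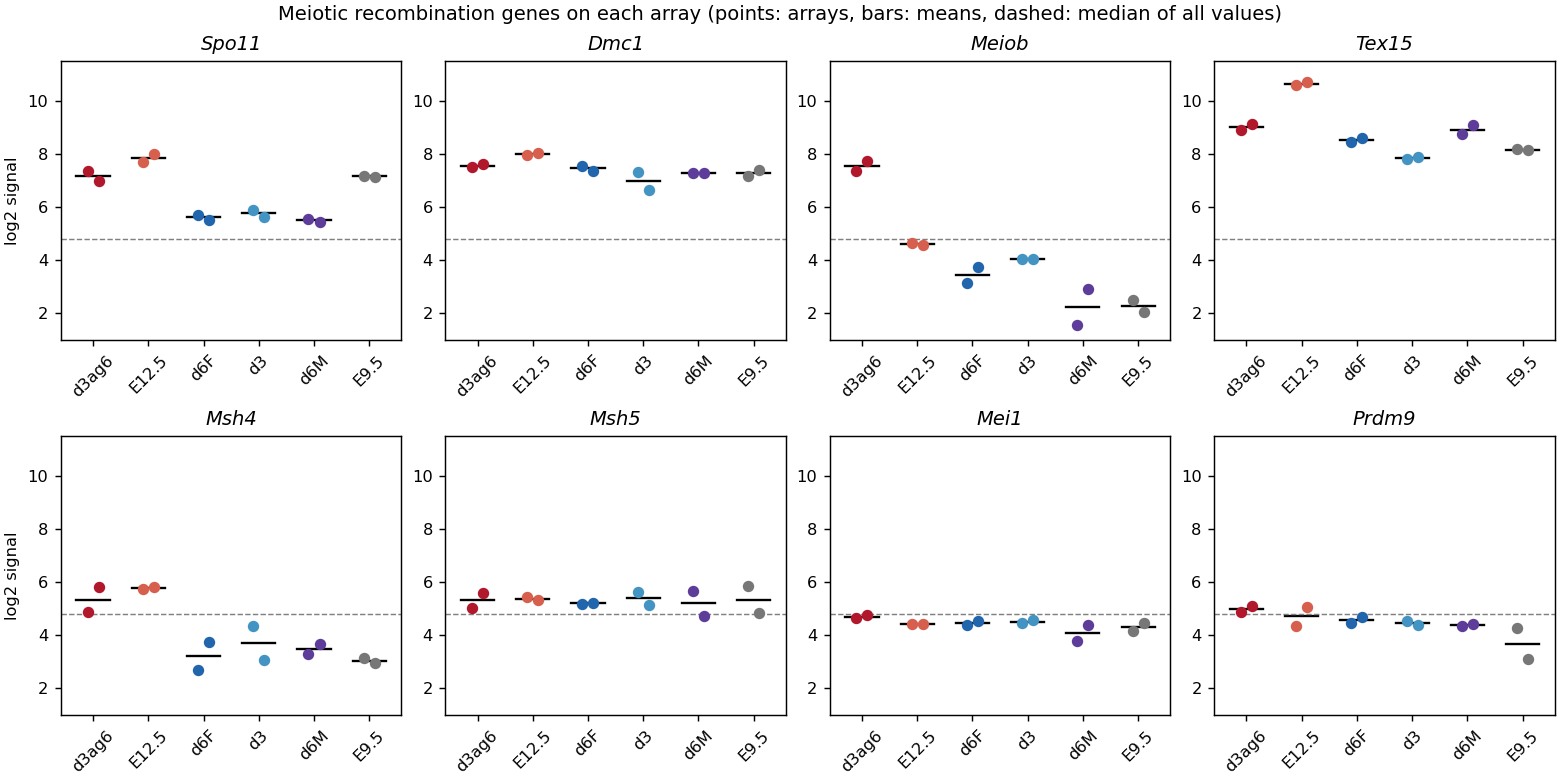
Log2 signal of the 8 recombination genes in each array, with 1 panel per gene, groups along the x axis, points for the 2 arrays of a group, a bar at their mean and a dashed line at 4.81, the median of all values. Meiob stands above 7 in d3ag6 alone, Tex15 is highest in E12.5, and the points of Msh5 lie at 4.71 to 5.84 in every group.

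The genes of break formation differed among themselves. Spo11, the enzyme that cuts the DNA (chromosome 2, 172977379 to 172993576 in GRCm38.p6), read 7.36 and 6.99 in d3ag6 cells, 7.71 and 8.01 in E12.5 PGCs, 5.72 and 5.53 in d6F, 5.90 and 5.64 in d3, 5.55 and 5.44 in d6M, and 7.16 and 7.15 in E9.5 PGCs. Every array of d3ag6, E12.5 and E9.5 thus lay above every array of the day 3 and day 6 PGCLCs kept without gonadal aggregation. The mean was 7.17 ± 0.27 in d3ag6, against 5.63 ± 0.13 in d6F (SD, n = 2 each), a change of 1.55 (SE 0.19, adjusted p = 0.00302). Relative to d3 the change was 1.41 (SE 0.19, adjusted p = 0.00217), and both calls held with each array left out in turn. Between d3ag6 and E12.5 the difference of -0.68 (SE 0.19) missed the threshold at an adjusted p of 0.0560, although no array of one group reached the other.

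Spo11 was also the recombination gene that most clearly set male day 6 PGCLCs apart from E9.5 PGCs. Its mean was 5.50 ± 0.08 in d6M, against 7.15 ± 0.01 in E9.5, a change of -1.66 (SE 0.19, adjusted p = 0.00101). Within the array code that held replicate 1 of both groups the difference was -1.61, and within that of replicate 2 it was -1.71. In the same comparison 4 of 7 tested mesenchyme markers, 3 of 9 macrophage and blood markers and 3 of 9 gonadal somatic markers were called lower in d6M and 4 of 8 endothelial markers higher, and their part was not tested. Of the 7 genes tested, Spo11 was the one called lower in d6M, where 4.55% of all genes were, and Tex15 the one called higher, where 6.04% were. Between female day 6 PGCLCs and E9.5 PGCs the change of Spo11 was -1.53 (SE 0.19, adjusted p = 0.00144). It was the 1 recombination gene called there, with 5.6% of all genes called lower and 8.33% higher. In the order of group means, E12.5, d3ag6 and E9.5 came first, with d3ag6 and E9.5 only 0.02 apart (adjusted p = 0.950), then d3 lay 1.39 below E9.5 (adjusted p = 0.00239), and d3, d6F and d6M did not differ from their neighbours beyond the spread.

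Mei1, which is needed for break formation (chromosome 15, 82070074 to 82126817), did not pass the filter. It read 4.65 and 4.76 in d3ag6, 4.43 and 4.44 in E12.5, 4.38 and 4.56 in d6F, 4.47 and 4.57 in d3, 3.78 and 4.38 in d6M, and 4.16 and 4.46 in E9.5. No array reached the median of all values, so the gene has values here but no test. The d3ag6 arrays were the 2 highest, and the other 5 groups overlapped with their neighbours in the order of means.

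Prdm9, the methyltransferase that places recombination hotspots (chromosome 17, 15543072 to 15564374), was close to that limit and passed the filter on 3 arrays. It read 4.90 and 5.12 in d3ag6, 4.35 and 5.08 in E12.5, 4.47 and 4.70 in d6F, 4.55 and 4.40 in d3, 4.35 and 4.44 in d6M, and 4.26 and 3.11 in E9.5. The d3ag6 arrays overlapped with those of E12.5, and the lowest value was that of 1 E9.5 array. The change between d3ag6 and d6F was 0.42 (SE 0.36, adjusted p = 0.540). Over all 15 pairs of groups, Prdm9 was called in 1, d3ag6 minus E9.5, at 1.32 (SE 0.36, adjusted p = 0.0284), a pair whose array codes differ and in which 14.1% of all genes were called higher. E9.5 lay under the median there, and the call was lost with no filter (adjusted p = 0.0532).

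Prdm9 and Dmc1 had promoter bases upstream of the annotated gene, and both are shown because they carry letters known from germline gene promoters. The promoter table of RefSeq (GRCm38.p6) had entries for 5 of the 8 genes, Dmc1, Msh4, Msh5, Mei1 and Prdm9. Shown are the 230 bases of one Prdm9 start that precede the gene, chr17:15564375-15564604 on the minus strand, 200 bases upstream of Dmc1, chr15:79605160-79605359 on the minus strand, and 22 bases just before the Dmc1 start of that table, chr15:79605110-79605131, which lie inside the gene's annotated span. Capitals mark TCCCGC, the core that the repressor E2F6 is known to bind in promoters of germline genes, and in Prdm9 also CNCCTCAG, reported for STRA8 in mouse, which overlaps the first by 1 base.
Prdm9 upstream: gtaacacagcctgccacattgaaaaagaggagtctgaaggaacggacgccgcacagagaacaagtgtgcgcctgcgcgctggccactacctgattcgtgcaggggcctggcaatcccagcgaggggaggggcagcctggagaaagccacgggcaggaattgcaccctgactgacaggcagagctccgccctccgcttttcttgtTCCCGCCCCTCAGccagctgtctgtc
Dmc1 upstream: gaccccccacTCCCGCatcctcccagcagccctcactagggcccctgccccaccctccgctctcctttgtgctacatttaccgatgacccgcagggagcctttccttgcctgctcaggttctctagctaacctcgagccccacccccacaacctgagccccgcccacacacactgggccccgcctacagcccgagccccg
Dmc1 site: ggggcttgcTCCCGCggccctc
Both strands of 300-base windows around 32851 starts were searched, and TCCCGC was found in 20.0% of them, CNCCTCAG in 7.94% and the E-box CACGTG in 7.15%. These shares are not matched for GC content. The 250 bases before a start had a median of 52.4% GC over all starts, with an upper quartile of 61.2%. They had 68.8% in Dmc1, 67.2% in Msh5 and 59.2% and 60.8% in Prdm9, against 47.2% in Mei1 and 43.6% in Msh4. Dmc1 held TCCCGC at 2 places, Msh5 held TCCCGC at 2 and CNCCTCAG at 1, and the windows of Msh4 and Mei1 held none of these motifs. The 2 Prdm9 windows held TCCCGC once each, and 1 of them also CNCCTCAG at 2 places. A match describes the letters of a window and is not evidence of binding.

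Among the genes of strand exchange, Meiob showed the widest range. MEIOB binds single-stranded DNA and keeps the recombinases in place (gene on chromosome 17, 24804301 to 24839788). It read 7.35 and 7.75 in d3ag6 cells, against 4.66 and 4.56 in E12.5 PGCs, 3.16 and 3.75 in d6F, 4.05 and 4.04 in d3, 1.54 and 2.93 in d6M, and 2.48 and 2.03 in E9.5. Only the 2 d3ag6 arrays exceeded the median of all values, so it passed the filter through that group alone. The change was 4.10 between d3ag6 and d6F (SE 0.41, adjusted p = 0.00122), 3.51 between d3ag6 and d3 (SE 0.41, adjusted p = 0.00111) and 2.94 between d3ag6 and E12.5 (SE 0.41, adjusted p = 0.00315). With each array left out in turn, the 3 changes lay at 3.806 to 4.395, 3.307 to 3.707 and 2.74 to 3.14. Those fits kept the filter set on all 12 arrays, which Meiob would not pass without either d3ag6 array. With every gene tested and no filter, limma's adjusted p-values were 0.00440, 0.00371 and 0.00914. With every value below the median set to it, the change of Meiob in d3ag6 was 2.74 against each of d6F, d3 and E12.5. All arrays outside d3ag6 then have the same value and no spread, so a call under that setting is no separate support.

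The other groups kept an order below d3ag6 that is only partly resolved. E12.5 PGCs averaged 4.61 ± 0.07 and E9.5 PGCs 2.26 ± 0.32 (SD, n = 2 each), a change of 2.36 (SE 0.41, adjusted p = 0.00402), but both means lie under the median of all values and setting low values to it leaves no difference. The change of 1.16 between E12.5 and d6F was not called (SE 0.41, adjusted p = 0.0782). Meiob in d6F, at 3.45 ± 0.42, differed from d3, at 4.05 ± 0.01, by -0.59 (adjusted p = 0.545).

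Dmc1, the meiosis-specific recombinase (chromosome 15, 79561497 to 79605159), differed less. On its brighter probe set, 1449819_at, it read 7.49 and 7.63 in d3ag6, 7.98 and 8.04 in E12.5, 7.56 and 7.35 in d6F, 7.33 and 6.64 in d3, 7.27 and 7.28 in d6M, and 7.16 and 7.39 in E9.5. E12.5 stood above all other arrays, while d3ag6 overlapped with d6F. The change between d3ag6 and d6F was 0.11 (SE 0.22, adjusted p = 0.828), and that between d3ag6 and d3 was 0.58 (SE 0.22, adjusted p = 0.147), called without d3 replicate 1 at an adjusted p of 0.0297.

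The second Dmc1 probe set, 1420335_at, was dimmer and moved more. It read 6.61 and 6.20 in d3ag6, 7.06 and 6.40 in E12.5, 5.74 and 5.46 in d6F, 5.95 and 5.29 in d3, 5.17 and 4.23 in d6M, and 4.95 and 4.32 in E9.5. Here both d3ag6 arrays lay above all arrays of d6F, d3, d6M and E9.5. The change between d3ag6 and d6F was 0.81 (SE 0.39, adjusted p = 0.257), so that neither probe set was called in that comparison. Between E12.5 and E9.5 both were called, at 0.74 on the brighter set (SE 0.22, adjusted p = 0.0418) and 2.09 on the dimmer (SE 0.39, adjusted p = 0.00554). The dimmer set was also called higher in d3ag6 than in E9.5, by 1.77 (adjusted p = 0.0122), and than in d6M, by 1.705 (adjusted p = 0.0192). The brighter set was called in neither (adjusted p = 0.378 and 0.408). Array code and group cannot be told apart in these pairs.

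**Figure D2:**
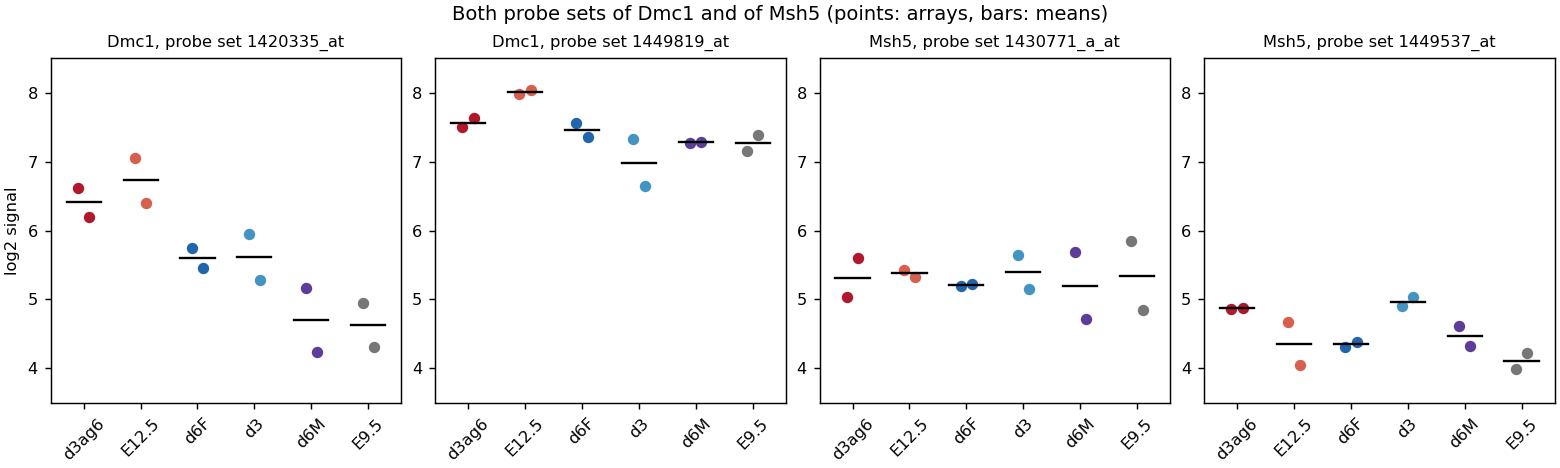
Log2 signal of both probe sets of Dmc1 and of Msh5 in each array, by group. The dimmer Dmc1 set, 1420335_at, reaches 7.06 in E12.5 and 4.23 in d6M, a wider span than the brighter set shows.

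Tex15, which is needed for repair of meiotic breaks and for silencing of transposons in mouse male germ cells (chromosome 8, 33516689 to 33592503), ran differently from Meiob. It read 8.90 and 9.12 in d3ag6, 10.60 and 10.70 in E12.5, 8.45 and 8.60 in d6F, 7.83 and 7.90 in d3, 8.74 and 9.10 in d6M, and 8.18 and 8.15 in E9.5. E12.5 lay above every other array by more than 1 on the log2 scale, and d3ag6 overlapped with d6M. The mean of 9.01 ± 0.16 in d3ag6 was below the 10.65 ± 0.07 of E12.5 (SD, n = 2 each), a change of -1.64 (SE 0.17, adjusted p = 0.000773), and above the 7.86 ± 0.05 of d3 by 1.14 (SE 0.17, adjusted p = 0.00353). The change against d6F, 0.48, was not called (SE 0.17, adjusted p = 0.128).

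Tex15 was higher in d6M than in E9.5 by 0.75 (SE 0.17, adjusted p = 0.0222). Within the 2 array codes the difference was 0.56 and 0.95, so both point the same way. The call was lost without either E9.5 array or without d6M replicate 2, with adjusted p-values of 0.0243 to 0.113 over the arrays left out, and in a fit to these 4 arrays alone (adjusted p = 0.221).

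Of the MutS pair that stabilises joined strands, Msh4 was called between groups and the brighter probe set of Msh5 was not. Msh4 (chromosome 3, 153857141 to 153906138) read 4.89 and 5.80 in d3ag6, 5.75 and 5.81 in E12.5, 2.70 and 3.74 in d6F, 4.35 and 3.07 in d3, 3.29 and 3.67 in d6M, and 3.14 and 2.94 in E9.5. The 4 arrays of d3ag6 and E12.5 lay above all others and were the 4 that exceeded the median of all values. The mean was 5.34 ± 0.65 in d3ag6, against 3.22 ± 0.73 in d6F (SD, n = 2 each), a change of 2.13 (SE 0.47, adjusted p = 0.0336). This call was lost without d3ag6 replicate 1, d3ag6 replicate 2 or d6F replicate 1, with adjusted p-values of 0.0469 to 0.219 over the 4 arrays left out. Setting low values to the median reduced the change to 0.53, which was not called (adjusted p = 0.232). The call was also lost with no filter (adjusted p = 0.0695), in a fit to the 4 arrays of d3ag6 and d6F (adjusted p = 0.0729) and in one to the 8 arrays of the shared code (adjusted p = 0.0552).

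Against d3 the Msh4 change of 1.64 was not called (SE 0.47, adjusted p = 0.0616). The higher level in E12.5 was firmer: 2.56 over d6F (SE 0.47, adjusted p = 0.00609) and 2.74 over E9.5 (SE 0.47, adjusted p = 0.00409), both of which held with each array left out. Setting low values to the median brought both to 0.97. The d6F and E9.5 arrays then have no spread, so a call under that setting is no separate support. With every gene tested and no filter, limma's adjusted p-values were 0.0147 over d6F and 0.0102 over E9.5. Between E12.5 and E9.5, array code and group cannot be told apart. The difference of -0.44 between d3ag6 and E12.5 was within the spread (adjusted p = 0.659).

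Msh5 (chromosome 17, 35028605 to 35046997) had group means between 5.20 and 5.40 on its brighter probe set. It read 5.04 and 5.60 in d3ag6, 5.43 and 5.33 in E12.5, 5.20 and 5.23 in d6F, 5.64 and 5.16 in d3, 5.68 and 4.71 in d6M, and 5.84 and 4.85 in E9.5. Neighbouring groups overlapped throughout, and the arrays of 1 group differed by up to 0.99 in E9.5. On the dimmer probe set, 1449537_at, the d3ag6 arrays read 4.87 and 4.88, against 4.68 and 4.05 in E12.5, 4.32 and 4.38 in d6F, 4.90 and 5.04 in d3, 4.61 and 4.33 in d6M and 3.99 and 4.23 in E9.5. The unaggregated d3 arrays were the highest. The change against E9.5 was called for d3ag6 (0.77, adjusted p = 0.0341) and for d3 (0.86, adjusted p = 0.0308), while that of d3ag6 against d6F was 0.53 (SE 0.22, adjusted p = 0.193).

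**Figure D3:**
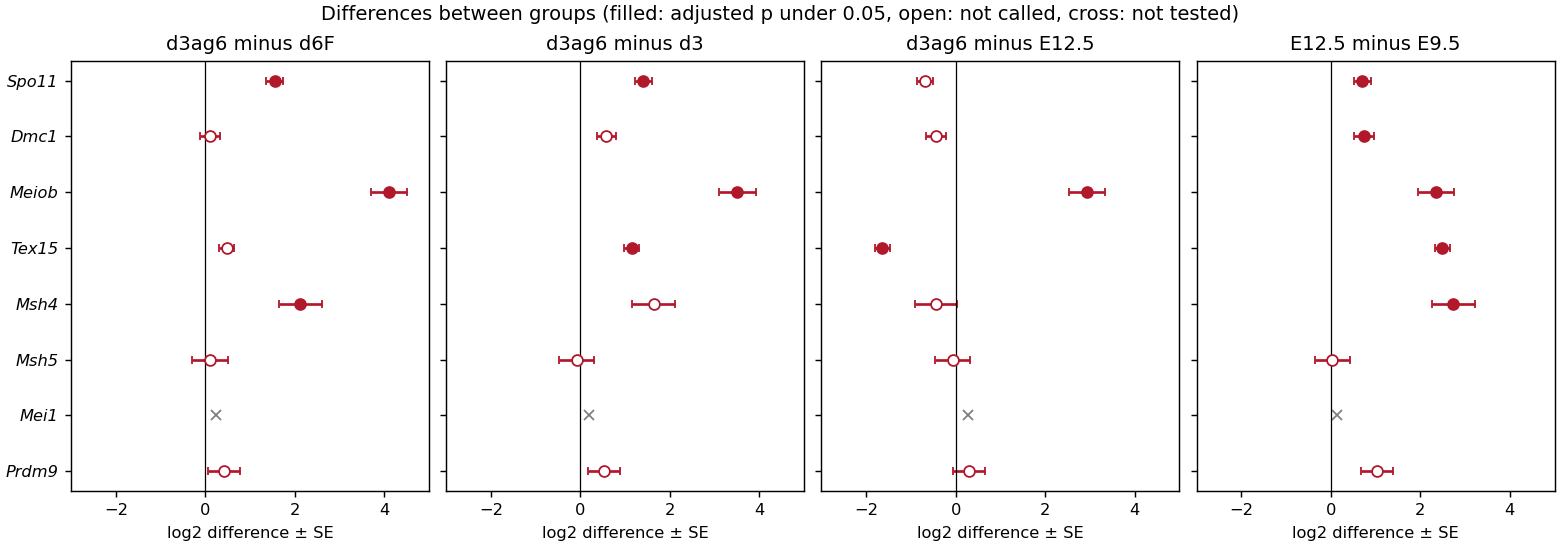
Changes of the 8 recombination genes on the log2 scale, with 1 panel per comparison, points for the difference of group means and bars for the standard error; filled points are called at an adjusted p under 0.05 and crosses mark the untested Mei1. Meiob lies at 4.10 in d3ag6 minus d6F and 2.94 in d3ag6 minus E12.5, where Tex15 lies at -1.64.

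In the embryo, 5 of the 7 tested genes were higher in E12.5 than in E9.5 PGCs and none was called lower, where 12.9% of all genes were called higher and 10.7% lower. Of the 5, Meiob lay under the median of all values in both groups, and with low values set to it the count was 4. Tex15 changed by 2.49 (SE 0.17, adjusted p = 5.53e-05), beside the Msh4, Meiob and Dmc1 changes given above, and Spo11 by 0.71 (SE 0.19, adjusted p = 0.0258). The Spo11 and Dmc1 calls were each lost when any of the 4 arrays was left out, with adjusted p-values up to 0.171 for Spo11 and 0.167 for Dmc1. On the deposited values without quantile normalization their changes were 0.55 and 0.57, with adjusted p-values of 0.0570 for Spo11 and 0.0646 for Dmc1. These Dmc1 values are those of its brighter probe set. The dimmer set, called above at 2.09, was not refitted with arrays left out or on deposited values. The summed macrophage and blood signal, 606 to 646 in E12.5 against 4582 to 10400 in E9.5, moved the other way. Its brightest genes in E9.5 were the globins Hba-x and Hbb-bh1, at 12.23 and 10.58, against 6.05 and 6.37 in E12.5. Of 9 tested markers of that list, 3 were called lower in E12.5. The macrophage marker Tyrobp was the 1 called higher, at 7.96 against 6.99. Of the mesenchyme markers, 7 of 7 tested were called lower in E12.5. The part of these markers in the changes was not tested.

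E12.5 PGCs were higher than d6F PGCLCs in 3 of the 7 genes, Spo11 by 2.23 (SE 0.19, adjusted p = 0.000131), Msh4 as above and Tex15 by 2.13 (SE 0.17, adjusted p = 0.00011). In that comparison 9.33% of all genes were called higher and 10.1% lower. The change of Dmc1, 0.55, was not called (SE 0.22, adjusted p = 0.119).

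Culture from day 3 to day 6 without aggregation gave no called recombination gene, where 1.72% of all genes were called higher and 2.34% lower in d6F than in d3. At an unadjusted p under 0.05, 1 of the 7 passed, Tex15, at 0.66 (SE 0.17, adjusted p = 0.0688 in limma). Female and male day 6 PGCLCs did not differ in a called gene either, with 0.968% of all genes called higher and 0.499% lower in d6F. At an unadjusted p under 0.05, 2 passed there, Meiob at 1.22 (adjusted p = 0.170) and Tex15 at -0.39 (adjusted p = 0.262).

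The changes d3ag6 minus d6F and E12.5 minus E9.5 were set against each other as a difference of changes, the first less the second. Days in culture differ in the first and array code in the second, and neither can be told apart from the groups. It was called for 1 of the 7 genes, Tex15, at -2.00 (SE 0.24, adjusted p = 0.00334), where 2.47% of all genes were called lower and 3.28% higher. The first change was 0.48 and the second 2.49. For Meiob the difference of 1.74 was not called (adjusted p = 0.118), nor was that of Spo11, 0.84 (adjusted p = 0.106).

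A wider list of recombination genes was examined for the same comparisons. Of 74 genes listed, 58 were on the array and 56 were tested; Spata22, the partner of MEIOB, was not analysed here. Between d3ag6 and d6F, 6 of the 56 were called higher and none lower, against 4.03% higher over all genes, and the median change of the list was 0.19, against 0.01 over all genes. By role, 2 of 8 genes of break formation were higher, 4 of 20 of strand exchange, 0 of 8 of end processing and damage signalling and 0 of 18 of crossover formation.

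Hormad1, an axis protein that promotes break formation, averaged 9.17 ± 0.07 in d3ag6, against 6.51 ± 0.30 in d6F (SD, n = 2 each), a change of 2.65 (SE 0.40, adjusted p = 0.00789). Its relative Hormad2 rose by 1.15 (adjusted p = 0.0423). Hsf2bp and Brme1 (listed as 4930432K21Rik), whose products form a complex with BRCA2 in mouse spermatocytes, rose by 1.63 (adjusted p = 0.0336) and 1.16 (adjusted p = 0.0344). Rad51c, which acts in homologous repair, rose by 0.96 (adjusted p = 0.0373), and Rpa2, a subunit of the general single-strand binding complex, by 0.63 (adjusted p = 0.0373). None of these 6 kept the call with each array left out; Hormad1 lost it without d6F replicate 2 or d3ag6 replicate 2, with adjusted p-values up to 0.0648.

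Against d3, 7 of the 56 were higher in d3ag6 and 2 lower, where 5.81% and 4.84% of all genes were. Brme1 rose by 1.99 (adjusted p = 0.00202) and Rad51c by 1.35 (adjusted p = 0.00602), and these 2 kept the call with each array left out. Hormad2 (1.60), Atr (0.90), Hormad1 (1.90), Mcm9 (0.76) and Rpa2 (0.57) were also called. ATR is a damage kinase, and MCM9 a helicase of repair. The resolvase genes Mus81 and Gen1 fell by 0.82 and 0.72. Psmc3ip and Mnd1, whose products form the complex that helps DMC1 exchange strands, were not called in either comparison, with changes between d3ag6 and d6F of -0.28 (adjusted p = 0.334) and 0.27 (adjusted p = 0.580).

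Relative to E12.5, 2 of the 56 were lower in d3ag6 and none higher, where 3.07% of all genes were lower and 5.95% higher. The 2 were Rpa2, by -0.59 (adjusted p = 0.0383) and Gen1, by -0.68 (adjusted p = 0.0490), and both lost the call without any of the 4 arrays. Hormad1 averaged 9.17 ± 0.07 in d3ag6 and 10.60 ± 0.10 in E12.5 (SD, n = 2 each), a difference of -1.43 that was not called (SE 0.40, adjusted p = 0.0619). The median change of the list was -0.16.

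**Figure D4:**
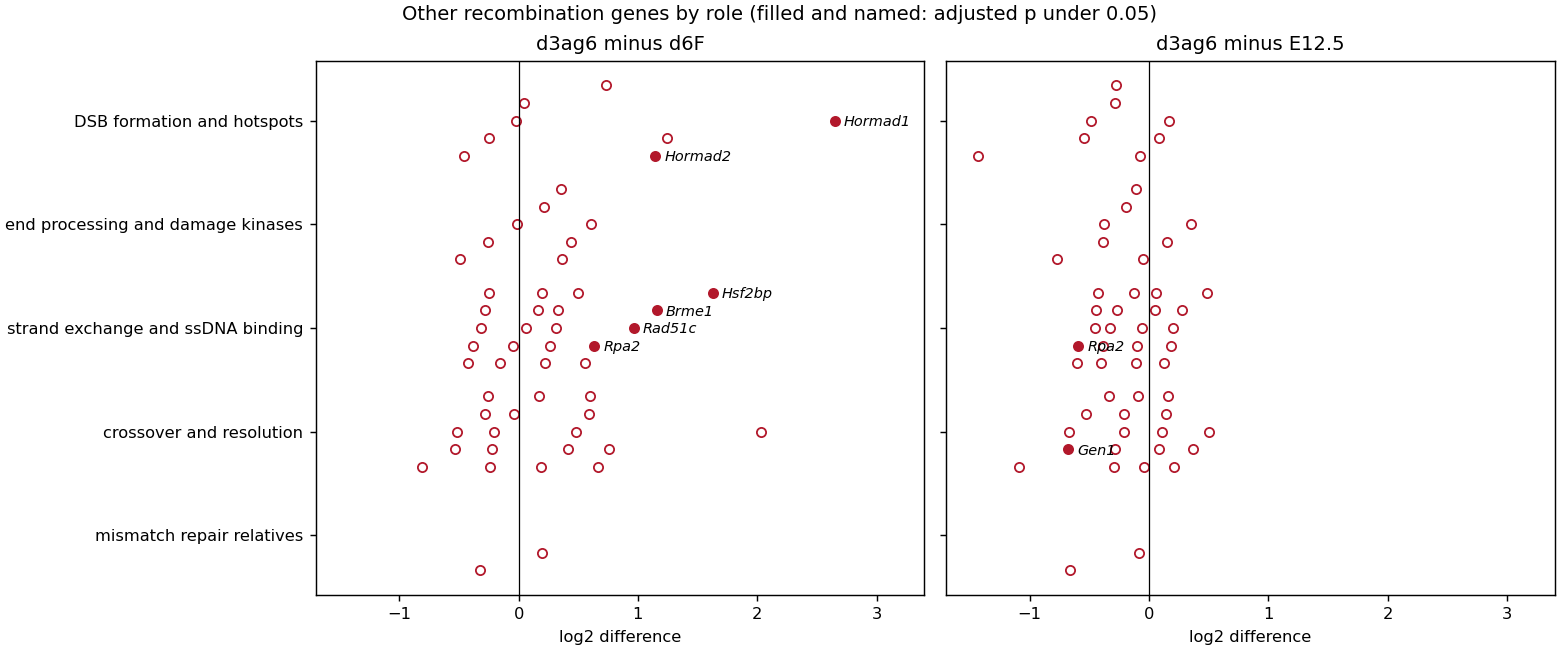
Changes on the log2 scale of the 56 other recombination genes tested, by role on the y axis, for d3ag6 minus d6F on the left and d3ag6 minus E12.5 on the right; filled, named points are called. Hormad1 lies farthest right at 2.65 in d3ag6 minus d6F, and 2 genes are filled in d3ag6 minus E12.5.

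Genes with the most similar pattern were sought for each tested recombination gene whose group means spanned at least 2 on the log2 scale, by Pearson's r over the 12 arrays, which share their group structure. Spo11 ran most like Mbl2 (r = 0.973), Rps6ka3 (0.967) and Rundc3b (0.966). Mbl2 averaged 5.28 ± 0.03 in d3ag6, 5.85 ± 0.03 in E12.5 and 5.35 ± 0.19 in E9.5, against 3.78 ± 0.25 in d6F, 3.79 ± 0.03 in d3 and 3.28 ± 0.30 in d6M (SD, n = 2 each), so the same 3 groups were high. Meiob ran most like Cst12 (0.960), Mphosph9 (0.946) and Slc6a20a (0.944), and Cst12 averaged 6.58 ± 0.23 in d3ag6, against 3.04 ± 0.14 in E12.5 and 3.06 ± 0.21 in d6F. Tex15 ran most like Xrcc6 (0.982), which codes for a subunit of the Ku end-binding complex, Eaf2 (0.972) and Vamp3 (0.971). Msh4 ran most like Rnf170 (0.966), Reps2 (0.963) and Srpk1 (0.961).

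The mean of the 7 tested genes, each centred on its own mean, ran most like Tmem18 (r = 0.992), Ulk2 (0.977), Ly6k (0.976), Tmem175 (0.976), Rnf170 (0.970), Stra8 (0.970), Kdm1b (0.969) and Fam8a1 (0.969). The genes were not scaled, so those of wide range weigh most in this mean. Group means spanned 5.32 in Meiob, 2.79 in Tex15 and 2.74 in Msh4, but 0.20 in Msh5. Stra8, the retinoic acid-induced gene that is required for meiotic entry, averaged 10.45 ± 0.30 in d3ag6 and 10.04 ± 0.17 in E12.5, against 3.65 ± 0.23 in d6F, 4.28 ± 0.25 in d3, 4.09 ± 0.78 in d6M and 3.47 ± 0.42 in E9.5. Among the recombination genes themselves, r over the 12 arrays was 0.827 for Dmc1 with Tex15, 0.762 for Msh4 with Tex15 and 0.742 for Msh4 with Meiob, but 0.308 for Meiob with Tex15. Msh5 had r of at most 0.290 in size with 6 of the others and -0.36 with Mei1.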

How the data were processed

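Expression was measured on 12 single-sample Affymetrix mouse arrays. Per the labels' protocols, RNA of sorted cells was turned into cDNA, of which the equivalent of 5 ng RNA or 500 cells was amplified by PCR (12 initial cycles) and labelled; such amplification can widen the spread of dim genes. The deposited values were read as log2 signal from their range, with 2.07% to 2.30% of an array's probe sets at 0. How the authors summarised and normalized them is not given in the sources used here.

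Groups came from the sample titles. Values were quantile normalized, and 34958 of the 45101 probe sets named 1 gene in the platform annotation. Tests used limma 3.58.1 in R 4.3.3 (lmFit with 6 group means over 12 arrays, 6 residual degrees of freedom, eBayes), two-sided, with Benjamini-Hochberg adjustment over 13436 genes in each comparison; 15 pairs of groups were fitted. Steps were tested on simulated data. Tables and figures used Python 3.11.15, pandas 2.3.3, numpy 2.4.6 and matplotlib 3.10.9. The 8 genes, the wider list, the markers and the motifs were chosen with earlier results of these data known. Of the wider list, the text names the 6 genes with the lowest adjusted p in each direction in d3ag6 minus d6F and d3ag6 minus d3, and the partners Hormad1, Psmc3ip, Mnd1 and Spata22. Genes of like pattern exclude provisional symbols. Replicate numbers were not treated as pairs.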

Additional observations from a re-analysis of the deposited data

Results flagged for a closer look

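Tex15 changed differently in culture and in the embryo. The change between d3ag6 and d6F PGCLCs less that between E12.5 and E9.5 PGCs was -2.00 on the log2 scale (SE 0.24, adjusted p = 0.00334, limma), with d3ag6 above d6F by 0.48 and E12.5 above E9.5 by 2.49. The array code differs between E12.5 and E9.5, and days in culture between d3ag6 and d6F, and neither can be told apart from the groups. With each of the 12 arrays left out in turn, the difference lay between -2.12 and -1.89 and kept its call, with adjusted p-values of 0.00432 to 0.0213.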

How the results depend on the processing

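The results were computed again with every gene tested, with a filter at the 75th percentile in place of the median, on deposited values without quantile normalization, with probe sets averaged per gene, with the replicate number or the array code as a block, with a trended and robust eBayes, on subsets of the arrays (those compared, or those of the code shared by 4 groups), with a required change of 1, with low values set to the median and with each array left out. The fits with an array left out kept the filter set on all 12 arrays. The other probe set of Dmc1 and Msh5 was added after the data were seen. Direction was compared for recombination genes at an unadjusted p under 0.05 in the main fit, and none of those changes turned. Some changes outside these turned on the other probe set. For example, Msh5 went from -0.06 to 0.51 in d3ag6 minus E12.5, and Dmc1 from 0.47 to -0.02 in d6F minus d3. The number of recombination genes called was 1 instead of 3 for d3ag6 minus d6F with the filter at the 75th percentile, which tests fewer genes, and 2, without Msh4, with every gene tested, with either subset of the arrays and with low values set to the median. For d6F minus d3 it was 1 instead of 0 with that filter, with only the arrays of the shared code, and with low values set to the median. For d6M minus E9.5 it was 1 instead of 2 with only the arrays compared and with a required change of 1. For E12.5 minus E9.5 it was 3 instead of 5 with the filter at the 75th percentile, the deposited values, only the arrays compared and a required change of 1, and 4 with every gene tested, without Dmc1 (adjusted p = 0.0739), and with low values set to the median, without Meiob. The difference of changes was called for 2 genes instead of 1 with the deposited values, only the arrays compared, and low values set to the median. Causes of these moves were not tested. With each array left out the counts ran from 2 to 3 for d3ag6 minus d6F, 3 to 5 for d3ag6 minus d3, 2 to 2 for d3ag6 minus E12.5, 3 to 4 for E12.5 minus d6F, 0 to 0 for d6F minus d3 and d6F minus d6M, 1 to 2 for d6M minus E9.5, d6F minus E9.5 and the difference of changes, and 3 to 5 for E12.5 minus E9.5. Without d3 replicate 1, Dmc1 and Msh4 joined d3ag6 minus d3 and made 5. Prdm9 joined d6F minus E9.5 without E9.5 replicate 1, and without either d6M array Meiob joined it and the difference of changes, making 2 in each. In d6M minus E9.5 the count was 1 without E9.5 replicate 2 or d6M replicate 2, and in E12.5 minus E9.5 it was 3 without E9.5 replicate 2 or either E12.5 array. Differences between arrays of the same number correlated at -0.25 to 0.33 between groups, and at 0.55 between d6M and E9.5, which share array codes, so the numbers were not taken as pairs. With the replicate number as a block, 3 genes were called in d3ag6 minus d6F, and no call of a recombination gene changed in any comparison. Signal near or under the median limits Mei1, Prdm9, Msh4 and, outside d3ag6, Meiob, and 2 arrays a group limit every test.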
